A study of Mus musculus with 217 samples.

Results

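Chondrocytes of the growth plate with much F3 mRNA were compared with chondrocytes in which F3 was not detected. Of all distinct chondrocyte profiles, 64 (36.4%) were F3-high, 38 (21.6%) were F3-intermediate and 74 (42%) were F3-negative. A profile counted as a chondrocyte when Acan, the gene of the cartilage proteoglycan aggrecan, had a deposited log2 value of at least 5. It was F3-high with an F3 value of at least 6, F3-negative with an F3 value below 1, and F3-intermediate in between. The 217 deposited single-cell columns gave these profiles and 11 others with Acan below 5, which were left out, after repeat columns had been averaged and 1 mixed column dropped.

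The mice were wild-type, with the strain label C57/BL, and their tibial growth plates were taken at postnatal day 7, and every group shares this genotype, strain, tissue and age. PolyA RNA was read as full-length cDNA, 1 library per column. The labels name no animal, litter or plate, so the cells count as 1 sample: no test was possible and no p-value is given. Each SD is a spread over profiles, and the 95% intervals of shares are exact (Clopper-Pearson) and allow for counting error alone.

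F3 encodes tissue factor, the cell-surface receptor that starts blood coagulation by binding factor VII, and which also signals into the cell. In the growth plate, resting chondrocytes give rise to columns of dividing cells, which become prehypertrophic, marked by Ihh, and then hypertrophic, marked by Col10a1. Along this path secreted factors carry signals between cells. Inhba encodes the subunit of activin A, a TGF-beta family ligand, Il11 a cytokine of the IL-6 family that signals through gp130, Hbegf a membrane-anchored ligand of the EGF receptor, and Hmga2 a chromatin protein of embryonic and young growing tissue.

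The stretch before the transcription start is shown for F3, for Il11 and for Plaur, the urokinase receptor. All 3 were picked because they hold a match to TGANTCA, the letters bound by AP-1 factors such as Fos. Il11 and Plaur were also higher in the F3-high profiles, which F3 itself chose. Fos mRNA was lower on average in the F3-high profiles, as given below, and a part of AP-1 was not tested. Each sequence is the 250 bases before the start in RefSeq, build GRCm38.p6, with the matches in capitals. They lie at chr3:121723287-121723536 on the plus strand for F3, at chr7:4778142-4778391 on the minus strand for the downstream start of Il11, and at chr7:24462233-24462482 on the plus strand for Plaur.
F3: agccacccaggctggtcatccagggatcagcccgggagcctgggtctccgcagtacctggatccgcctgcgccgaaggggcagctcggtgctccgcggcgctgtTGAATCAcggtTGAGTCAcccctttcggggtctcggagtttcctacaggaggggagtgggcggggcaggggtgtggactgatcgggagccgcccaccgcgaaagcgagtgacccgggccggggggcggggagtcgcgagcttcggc
Il11: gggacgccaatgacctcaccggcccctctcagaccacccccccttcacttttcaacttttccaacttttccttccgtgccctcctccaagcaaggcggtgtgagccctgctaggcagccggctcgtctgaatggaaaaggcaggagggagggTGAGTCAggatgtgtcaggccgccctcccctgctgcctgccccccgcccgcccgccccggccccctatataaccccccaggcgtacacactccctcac
Plaur: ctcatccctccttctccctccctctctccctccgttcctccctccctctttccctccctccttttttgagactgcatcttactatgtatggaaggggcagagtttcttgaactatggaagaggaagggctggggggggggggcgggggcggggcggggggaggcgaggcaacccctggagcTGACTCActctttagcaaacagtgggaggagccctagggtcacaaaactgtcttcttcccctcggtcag

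The F3 stretch holds 2 matches, TGAATCA and TGAGTCA, close to each other. The others hold 1 each, which begins 98 bases before the start in Il11 and 69 in Plaur. TGANTCA reads the same on both strands, and the search covered the whole window. The upstream start of Il11 and the starts of Inhba, Hmga2, Ptgs2 and Fbln7 hold none. A match is a description of the letters and no evidence of binding: 2217 of 32851 mouse promoters in the table (6.75%) hold it. Of the 26 genes at least 1.5 higher in the F3-high profiles, F3 among them, 22 have a promoter in the table, and 3 of these (13.6%), F3, Il11 and Plet1, hold a match. Counted by promoter, as the 6.75% is, 3 of their 24 promoters (12.5%) hold it. F3 chose the groups, Il11 is a marker given for this comparison, and Plet1 comes from an earlier clustering of these cells. The shares are therefore a description and no independent evidence. Of the 5 genes at least 1.5 lower, 4 have a promoter and 1, Chp1, holds a match.

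F3 itself chose the groups, so its values are a description. The F3-high profiles ran from 6.02 to 11.61 on the log2 scale with a median of 8.12 (mean 8.16 ± 1.27 SD, n = 64), and the F3-intermediate profiles from 1.13 to 5.92 with a median of 4.34 (n = 38). Of the 74 F3-negative profiles, 68 were listed at exactly 0 and the highest had 0.65. There was no gap at the upper limit, since the profiles just inside had 6.02 and 6.06 and those just outside 5.92 and 5.84. At the lower limit, the values just inside were 0.65 and 0.35 and those just outside 1.13 and 1.24. F3 therefore formed a continuous range above a large class listed at 0, as the plot of F3 by rank shows.

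**Figure D1:**
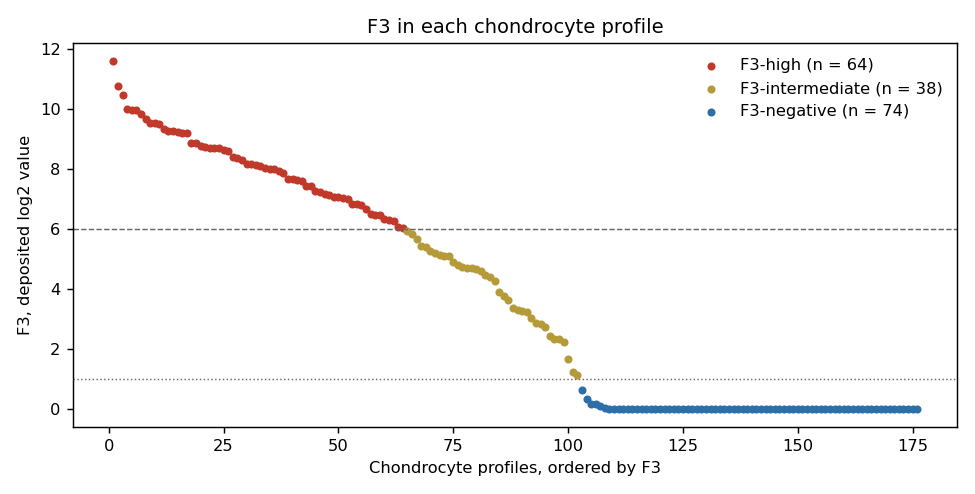
F3 (deposited log2 value) in each chondrocyte profile, ordered from high to low; the dashed line marks the F3-high minimum of 6 and the dotted line the F3-negative limit of 1. The 64 F3-high profiles run into the 38 intermediate ones without a step, and 68 of the 74 F3-negative profiles lie at 0.

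Columns that correlate above 0.95 were taken as repeats of 1 cell and averaged. Of 23 such sets, 8 were F3-high, 13 F3-negative and 2 F3-intermediate, and F3 was listed at 0 in every column of 9 sets. In the other 14 sets the SD of F3 between columns ran from 0.02 to 0.82. In 1 set, with values of 0.07 and 1.23, the columns fell on both sides of the lower limit.

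F3-high profiles held 2570 to 4354 detected genes with a median of 3520.5 (mean 3473 ± 423 SD, n = 64), against 1326 to 4516 with a median of 3322 in F3-negative profiles (mean 3289 ± 650 SD, n = 74). Detection means a log2 value of at least 1. The profiles with the fewest genes were thus F3-negative, and each difference named below is also given, as given genes detected, from a linear fit with genes detected as a covariate where that moves it by more than 0.3. How deeply each cell was sequenced is unknown, since scaled values were deposited, and a 0 may stand for an absent transcript or for a failed estimate.

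Acan, which chose the profiles and so is no check of them, averaged 9.0 ± 0.63 in F3-high and 9.20 ± 0.88 in F3-negative profiles (SD). Sox9, a master regulator of chondrocyte fate, was detected in all 64 F3-high and all 74 F3-negative profiles. Sox9 was 0.78 higher in the F3-high profiles, at 9.06 ± 1.23 against 8.28 ± 1.62. Col2a1, which encodes the main cartilage collagen, goes against the label: it was detected in 16 of 64 F3-high and 15 of 74 F3-negative profiles and did not exceed 2.77 in F3-high or 2.97 in F3-negative profiles. Over the 21 measured of 23 listed chondrocyte genes the median difference was 0.22, with 15 members higher and 6 lower, beside 55.3% of all 9739 measured genes higher, and none of the 19 tested members reached a difference of 1. Each difference is the mean log2 value of the F3-high profiles minus that of the F3-negative profiles.

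Few genes differed widely. Among 5380 genes detected in at least 20% of the chondrocyte profiles, called the tested genes although no significance test was run, 26 were at least 1.5 higher in F3-high profiles, F3 included (0.483%), and 5 were at least 1.5 lower (0.0929%). At a limit of 1, 3.83% were higher and 37 genes (0.688%) lower. These shares are the background for every count of tested list members below. The median difference over the tested genes was 0.11, and 5% to 95% of them lay between -0.56 and 0.91. Over all measured genes the median was 0.03. The values of every gene named below overlapped between the F3-high and the F3-negative profiles, F3 alone excepted.

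Activin, IL-11, HB-EGF and CTHRC1 mRNA were all higher in the F3-high profiles. Il11 was 2.25 higher, Hbegf 2.36, Cthrc1 1.91 and Inhba 1.75, which put them within the 15 genes with the highest differences. Inhba is also among the genes that an earlier clustering of these cells gave with F3, so its difference is no independent evidence. Il11 is a marker given for this comparison, and the comparison and lists were chosen with earlier results of these data known. The differences of Il11, Hbegf and Cthrc1 are thus no independent evidence either. Detection was more frequent, and for Il11, Hbegf and Inhba the median among profiles with the gene detected was higher too.

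Il11 values in F3-high profiles ran from 0.00 to 9.75 with a median of 5.39 (mean 4.96 ± 2.74 SD), against 0.00 to 8.81 with a median of 1.80 in F3-negative profiles (mean 2.71 ± 2.93 SD). It was detected in 57 of 64 F3-high profiles (89.1%, interval 78.8 to 95.5%), in 31 of 38 F3-intermediate profiles (81.6%, 65.7 to 92.3%) and in 39 of 74 F3-negative profiles (52.7%, 40.8 to 64.4%). The F3-intermediate profiles, with a mean of 4.80, lay close to the F3-high ones. When the profiles with Ihh detected were left out, the Il11 difference was 1.43, which is below the limit of 1.5.

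Hbegf ran from 0.00 to 8.78 with a median of 6.54 in F3-high profiles (mean 5.72 ± 2.57 SD), against 0.00 to 9.69 with a median of 3.77 in F3-negative profiles (mean 3.35 ± 2.98 SD). Detection was 57 of 64 F3-high (89.1%, 78.8 to 95.5%), 32 of 38 F3-intermediate (84.2%, 68.7 to 94%) and 47 of 74 F3-negative profiles (63.5%, 51.5 to 74.4%). Its difference stayed between 2.02 and 3.26 under every alternative set of profiles or scaling with the pseudocount kept at 1. The highest single Hbegf value belonged to an F3-negative profile.

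Inhba, the activin subunit, ran from 0.00 to 10.66 with a median of 7.38 in F3-high profiles (mean 5.96 ± 3.76 SD), against 0.00 to 11.26 with a median of 4.37 in F3-negative profiles (mean 4.21 ± 3.78 SD). For Inhba it was 48 of 64 F3-high (75%, 62.6 to 85%), 26 of 38 F3-intermediate (68.4%, 51.3 to 82.5%) and 46 of 74 F3-negative profiles (62.2%, 50.1 to 73.2%), so the F3-high and F3-negative intervals overlapped widely. Among profiles with Inhba detected, the median was 7.99 in F3-high and 6.77 in F3-negative profiles. The difference was 1.28 among profiles below the median number of detected genes and 1.22 without the profiles with Ihh detected, both under the limit of 1.5.

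Cthrc1 encodes a secreted glycoprotein that acts in WNT signalling. It was detected in 46 of 64 F3-high profiles (71.9%, 59.2 to 82.4%), in 21 of 38 F3-intermediate profiles (55.3%, 38.3 to 71.4%) and in 32 of 74 F3-negative profiles (43.2%, 31.8 to 55.3%). Its median was 5.46 in F3-high and 0.00 in F3-negative profiles, and its highest value was 9.43 in F3-high and 10.17 in F3-negative profiles. Where the gene was detected its median was 6.76 in F3-high and 6.93 in F3-negative profiles, so the difference in means lay in how many profiles had it. Without the profiles with Fos of at least 6 the difference was 1.27.

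**Figure D2:**
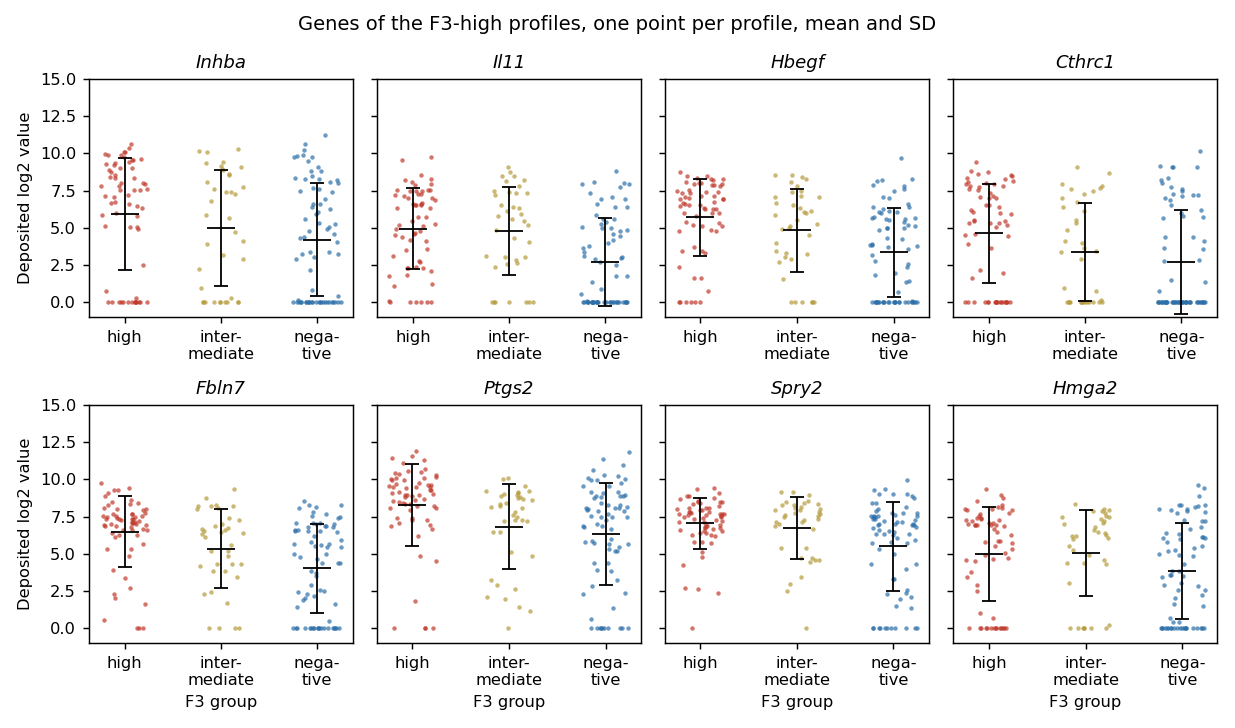
Deposited log2 values of 8 genes in F3-high (n = 64), F3-intermediate (n = 38) and F3-negative (n = 74) profiles, 1 point per profile, with the mean and SD as bars. In each gene the groups overlap, and F3-negative profiles have more points at 0: Il11 is not detected in 35 of 74 F3-negative but in 7 of 64 F3-high profiles.

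The plot of single profiles shows that the secreted factors were not all-or-none markers of the F3-high cells, and the number of them found in the same profile shows how they combined. All 4 of Inhba, Il11, Hbegf and Cthrc1 were detected in 33 of 64 F3-high profiles (51.6%, 38.7 to 64.2%), in 10 of 38 F3-intermediate profiles (26.3%, 13.4 to 43.1%) and in 13 of 74 F3-negative profiles (17.6%, 9.70 to 28.2%). At the other end, 5 F3-high profiles had 1 factor and 1 had none, against 20 F3-negative profiles with 1 and 5 with none. Read the other way, 57 profiles with Il11 detected were F3-high, 44.9% of those with it (36 to 54%), against 7 of 49 without it (14.3%, 5.94 to 27.2%). The 4 factors are among the 15 genes with the highest differences between these same profiles. Their counts are therefore a description and no independent evidence.

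Within the F3-high group, the 32 profiles with F3 at or above its median had a mean Il11 of 5.59 ± 2.50 and a mean Inhba of 6.52 ± 3.49, against 4.33 ± 2.87 and 5.40 ± 3.99 in the 32 profiles below it (SD). Hbegf averaged 5.83 in the profiles at or above the F3 median and 5.61 below it, and Cthrc1 4.48 and 4.81 in the same order. The 48 F3-high profiles with Inhba detected had a mean Hbegf of 6.25 and a mean Cthrc1 of 5.13, against 4.11 and 3.18 in the 16 without Inhba. In the F3-negative group the same split gave a mean Hbegf of 3.45 with Inhba (n = 46) and 3.19 without it (n = 28). The gap in Hbegf between profiles with and without Inhba was thus wider in the F3-high than in the F3-negative group. For Hmga2 it was narrower, with means of 5.28 with and 4.04 without Inhba in the F3-high group, against 4.74 with and 2.42 without it in the F3-negative group. Ptgs2 averaged 8.51 with and 7.65 without Inhba in the F3-high group, against 7.09 and 5.05 in the F3-negative group, and Spry2 7.25 and 6.42 in the F3-high group, against 6.28 and 4.20 in the F3-negative group. These gaps are a description over cells of 1 sample.

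The partners of these factors differed less. Of 25 listed activin and TGF-beta genes, 17 were measured with a median difference of 0.08, and 2 of 9 tested members were at least 1 higher, Inhba and Tgfbi. Tgfbi, a matrix protein induced by TGF-beta, averaged 7.44 ± 1.78 in F3-high and 6.05 ± 2.54 in F3-negative profiles (SD), a difference of 1.39. The activin antagonist Fst had a difference of 0.28, the receptor gene Acvr2a 0.08 and the signal transducer Smad4 -0.69.

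Of 16 listed IL-6 family genes, 10 were measured with a median difference of 0.11, and Il11 alone of 5 tested members reached 1. The oncostatin M receptor gene Osmr was detected in 35 of 64 F3-high and 27 of 74 F3-negative profiles (difference 0.97). Lifr, the receptor of leukemia inhibitory factor, was detected in 47 of 64 F3-high and 41 of 74 F3-negative profiles (0.90), and Il6st, which encodes the shared receptor gp130, had a difference of 0.41. The alpha receptor of IL-11 was not analysed here.

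In the EGF family, 8 of 15 listed genes were measured with a median difference of -0.04, and Hbegf alone of 3 tested members reached 1. Errfi1, a feedback inhibitor of the EGF receptor, averaged 8.57 ± 1.73 in F3-high and 7.84 ± 1.76 in F3-negative profiles (SD), a difference of 0.73. Adam10, a protease that sheds membrane-anchored ligands, was detected in 22 of 64 F3-high and 34 of 74 F3-negative profiles, with a difference of -0.94.

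Over measured genes, the FGF pathway and feedback list had the highest median among the pathways examined, apart from a list chosen on these cells. Of 20 listed genes, 11 were measured, 10 of them were higher in F3-high profiles, beside 55.3% of all measured genes, and their median difference was 0.70 beside 0.03 for all measured genes. Of 7 tested members, 3 were at least 1 higher, beside 3.83% of all tested genes. Over tested members alone, the median was 0.855 in this list, 0.903 in the IL-6 family list (5 members) and 0.728 in the EGF family list (3 members). Spry2, an inhibitor of receptor tyrosine kinase signalling, ran from 0.00 to 9.40 with a median of 7.46 in F3-high profiles, against 0.00 to 9.95 with a median of 6.66 in F3-negative profiles. Spry2 was detected in 63 of 64 F3-high and 63 of 74 F3-negative profiles, its difference was 1.55, and it was 0.79 without the profiles with Ihh detected. Dusp6, an ERK phosphatase, averaged 3.61 ± 2.57 in F3-high and 2.49 ± 2.59 in F3-negative profiles (difference 1.11, or 0.42 among profiles below the median number of detected genes). Spry4, a relative of Spry2, averaged 2.63 ± 2.72 in F3-high, 1.11 in F3-intermediate and 1.59 ± 2.30 in F3-negative profiles (1.04). The median of the list ran from 0.42 to 0.74 with the pseudocount kept at 1.

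Coagulation and plasminogen genes other than F3 had a median difference of 0.07 over 12 measured of 18 listed, and Plaur alone of 6 tested members was at least 1 higher. Plaur, which binds the plasminogen activator urokinase at the cell surface, was detected in all 64 F3-high and in 71 of 74 F3-negative profiles. Plaur averaged 8.30 ± 1.31 in F3-high and 7.19 ± 2.33 in F3-negative profiles (SD), a difference of 1.11, or 0.85 without the profiles with Ibsp or Col1a1 detected. Thbd, the anticoagulant receptor thrombomodulin, had a difference of 0.69, the urokinase gene Plau 0.13 and the protease inhibitor gene Serpine2 -0.74.

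WNT genes gave a median of 0.23 over 15 measured of 28 listed, with Cthrc1 alone of 7 tested members past 1. Frzb, a secreted WNT antagonist, was lower, with detection in 30 of 64 F3-high and 44 of 74 F3-negative profiles and a difference of -0.97, or -1.27 given genes detected. The transcription factor gene Tcf7 had a difference of 0.84. BMP genes gave a median of -0.11 over 18 measured of 23, and 1 of 13 tested members was at least 1 lower. That gene, Chrdl1, encodes a secreted BMP antagonist and was detected in 35 of 64 F3-high and 52 of 74 F3-negative profiles (difference -1.04, or -1.34 given genes detected). The BMP target gene Id3 had a difference of -0.81, or -1.17 given genes detected, and the ligand gene Bmp6 0.55, or 0.22 given genes detected.

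All 10 measured of 15 listed CCN and YAP target genes had differences above 0, beside 55.3% of all measured genes, with a median of 0.22. Given genes detected, the median was 0.13, and Cyr61 (-0.05) and Wisp3 (-0.11) fell below 0. No tested member reached 1. Ctgf, a matricellular growth factor, averaged 6.26 ± 2.01 in F3-high and 5.41 ± 2.72 in F3-negative profiles (0.85), and Cyr61 had a difference of 0.12. Among 29 other listed growth factors and cytokines, 15 were measured with a median of -0.05, and Cxcl1, a neutrophil chemokine, was the 1 of 7 tested members past 1. Cxcl1 was detected in 25 of 64 F3-high and 19 of 74 F3-negative profiles and was 1.43 higher.

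**Figure D3:**
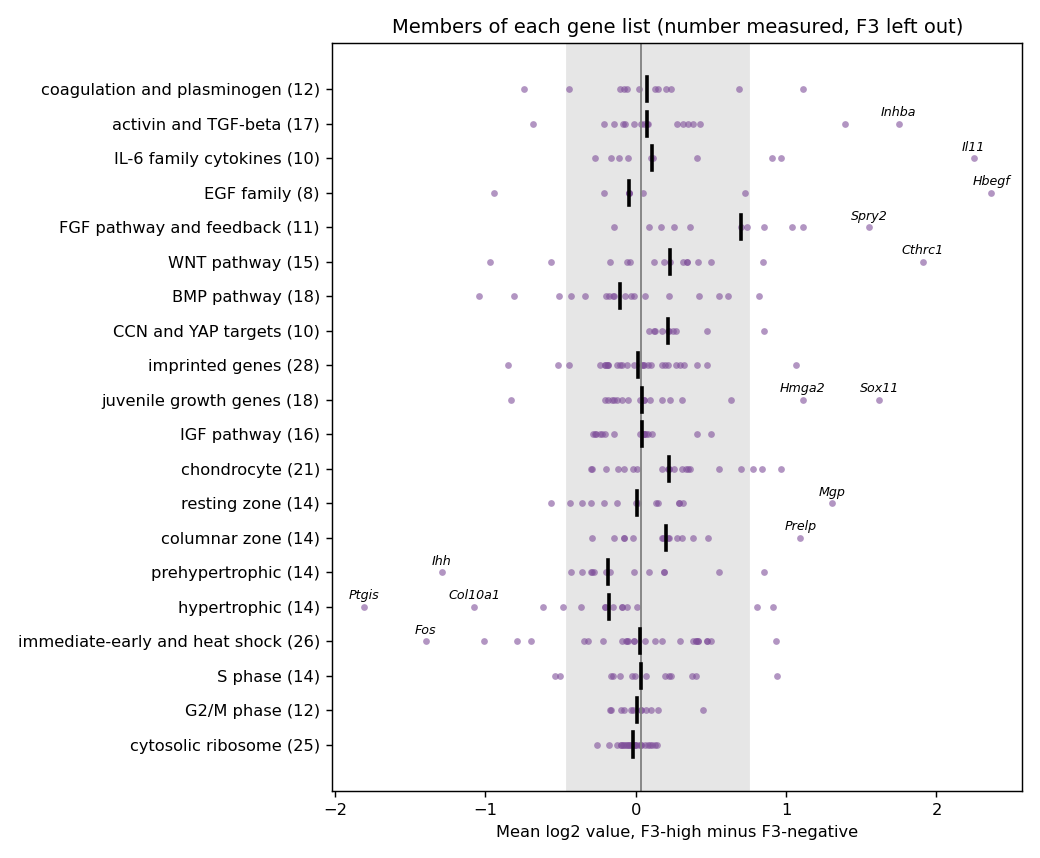
Differences of mean log2 value, F3-high minus F3-negative, for the measured members of 20 gene lists, 1 point per gene, with the list median as a black bar; the grey line and band mark the median and the 5% to 95% range of all 9739 measured genes. The FGF pathway and feedback list has the highest median, 0.70, and single secreted factors such as Hbegf at 2.36 stand far from the medians of their lists.

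In the plot of lists, 5% to 95% of all measured genes lay between -0.46 and 0.75. Besides Inhba, Il11, Hbegf and Cthrc1, their lists hold other members outside that range. Tgfbi, Osmr, Lifr and Tcf7 lay above it, and Smad4, Adam10, Frzb and Wif1 below it. Of 48 listed imprinted genes, 28 were measured, and the median difference was 0.02. Of these, 14 were higher and 14 lower, beside 55.3% of all measured genes higher. H19, an imprinted noncoding RNA abundant in young tissue, was detected in 63 of 64 F3-high and 71 of 74 F3-negative profiles. H19 averaged 7.36 ± 2.22 in F3-high and 7.18 ± 2.67 in F3-negative profiles (SD), a difference of 0.18. Igf2, the growth factor gene beside H19, averaged 0.39 in F3-high and 0.34 in F3-negative profiles. Impact, a regulator of the translational stress response, was the 1 of 19 tested members past 1, at 7.12 ± 2.35 in F3-high and 6.05 ± 2.86 in F3-negative profiles (1.06). Grb10, an adaptor that restrains insulin and IGF signalling, was detected in 18 of 64 F3-high profiles (28.1%, 17.6 to 40.8%) and in 42 of 74 F3-negative profiles (56.8%, 44.7 to 68.2%). Its difference was -0.85, and no Grb10 value exceeded 3.0 in F3-high or 4.30 in F3-negative profiles.

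Hmga2 ran from 0.00 to 9.32 with a median of 6.09 in F3-high profiles (mean 4.97 ± 3.15 SD), against 0.00 to 9.64 with a median of 3.70 in F3-negative profiles (mean 3.86 ± 3.22 SD). It was detected in 49 of 64 F3-high (76.6%, 64.3 to 86.2%), 30 of 38 F3-intermediate (78.9%, 62.7 to 90.4%) and 50 of 74 F3-negative profiles (67.6%, 55.7 to 78%). The F3-intermediate mean of 5.06 was as high as the F3-high mean. Its difference of 1.11 depended on the number of genes detected per profile: it was 1.99 among profiles at or above the median and 0.34 below it. It was 0.58 without the profiles with Ibsp or Col1a1 detected.

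Of 29 listed juvenile growth genes, 18 were measured with a median difference of 0.04, and 2 of 11 tested members were past 1, Sox11 and Hmga2. Sox11, a transcription factor of embryonic progenitors, was detected in 51 of 64 F3-high and 42 of 74 F3-negative profiles, with medians of 5.89 in F3-high and 2.99 in F3-negative profiles and a difference of 1.62, or 0.88 among profiles below the median number of detected genes. Smo, which transduces hedgehog signals, had a difference of -0.83 and Ccnd1, a G1 cyclin gene, 0.64. IGF pathway genes gave a median of 0.04 over 16 measured of 21, and no tested member reached 1. An earlier clustering of these cells gave 9 genes that led with F3, namely Inhba, Fbln7, Sox11, Plet1, Hmga2, Impact, Moxd1, Rqcd1 and Trappc6b. Neither their median of 1.34 nor the difference of any of them is independent evidence, since these cells chose them.

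Of the zone markers, Ihh alone of 11 tested prehypertrophic genes, and Ptgis and Col10a1 of 10 tested hypertrophic genes, were at least 1 lower in the F3-high profiles. Both list medians were -0.18, beside 0.03 for all measured genes, and the spread of such list medians was not tested. For Ihh and Col10a1 the direction depended on the profiles used. The hedgehog ligand gene Ihh was detected in 16 of 64 F3-high profiles (25%, 15 to 37.4%), in 13 of 38 F3-intermediate profiles (34.2%, 19.6 to 51.4%) and in 32 of 74 F3-negative profiles (43.2%, 31.8 to 55.3%). It averaged 1.07 ± 1.94 in F3-high and 2.35 ± 2.84 in F3-negative profiles (SD), a difference of -1.29, or -1.61 given genes detected. Among the 24 F3-high and 20 F3-negative profiles with Fos below 6 it was 0.46, of the opposite sign. The median over all tested genes was 0.42 in those profiles, close to this value.

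Col10a1, the collagen gene of hypertrophic cells, was detected equally often, in 50 of 64 F3-high (78.1%, 66 to 87.5%) and 57 of 74 F3-negative profiles (77%, 65.8 to 86%), but at a lower level. Its median was 6.63 in F3-high and 8.30 in F3-negative profiles, and its highest value was 12.47 in F3-high and 14.62 in F3-negative profiles. The difference of -1.07, or -1.61 given genes detected, was 0.25 without the profiles with Ihh detected and 1.42 without those with Fos of at least 6, so its direction depended on these profiles. The median over all tested genes was 0.27 without the Ihh profiles and 0.42 without the Fos profiles. Ptgis, the prostacyclin synthase gene, was detected in 22 of 64 F3-high (34.4%, 22.9 to 47.3%) and 42 of 74 F3-negative profiles (56.8%, 44.7 to 68.2%), with a difference of -1.81, or -2.14 given genes detected. It kept its sign in all settings but was -0.89 among profiles below the median number of detected genes.

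Of 17 listed hypertrophic genes, 14 were measured, with 11 lower and 3 higher in F3-high profiles, beside 55.3% of all measured genes higher. Ibsp, the bone sialoprotein gene, was detected in 12 of 64 F3-high and 16 of 74 F3-negative profiles, and Spp1, which encodes osteopontin, in 12 of 64 F3-high and 18 of 74 F3-negative profiles. Adamts1, a matrix protease gene, and Enpp1, which makes pyrophosphate, went the other way with differences of 0.81, or 0.47 given genes detected, and 0.91. Of 16 listed prehypertrophic genes, 14 were measured. Panx3, a channel of prehypertrophic cells, had a difference of 0.19. Both medians turned positive without the profiles with Ihh detected, to 0.15 in the prehypertrophic and 0.08 in the hypertrophic list. Without those with Fos of at least 6 they were 0.17 in the prehypertrophic and 0.19 in the hypertrophic list. The median over all tested genes rose as well, from 0.11 to 0.27 without the Ihh profiles and to 0.42 without the Fos profiles. Each of these list medians, taken over measured genes, thus stayed below the median of the tested genes. Among 17 alternatives, the prehypertrophic median kept its sign in 13 and the hypertrophic median in 15.

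Resting zone genes gave a median of 0.01 over 14 measured of 16. Ucma, a matrix protein of the upper growth plate, was detected in 44 of 64 F3-high and 42 of 74 F3-negative profiles, and Sfrp5, a secreted WNT inhibitor, in 26 of 64 F3-high and 24 of 74 F3-negative profiles. Mgp, the matrix Gla protein gene, was the 1 of 9 tested members past 1. It ran from 7.21 to 13.07 with a median of 9.87 in F3-high profiles, against 0.00 to 15.10 with a median of 9.14 in F3-negative profiles (difference 1.31). Columnar zone genes gave a median of 0.20 over 14 measured of 15, with Prelp, a leucine-rich matrix protein gene, the 1 of 9 tested members past 1. Prelp averaged 8.37 ± 1.15 in F3-high and 7.27 ± 2.40 in F3-negative profiles (SD), a difference of 1.09. F3-high profiles were thus found in every zone class examined: they made up 16 of 61 profiles with Ihh detected (26.2%, 15.8 to 39.1%), 36.5% of those with Col10a1 (50 profiles, 28.4 to 45.1%) and 26 of 66 with Sfrp5 (39.4%, 27.6 to 52.2%).

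**Figure D4:**
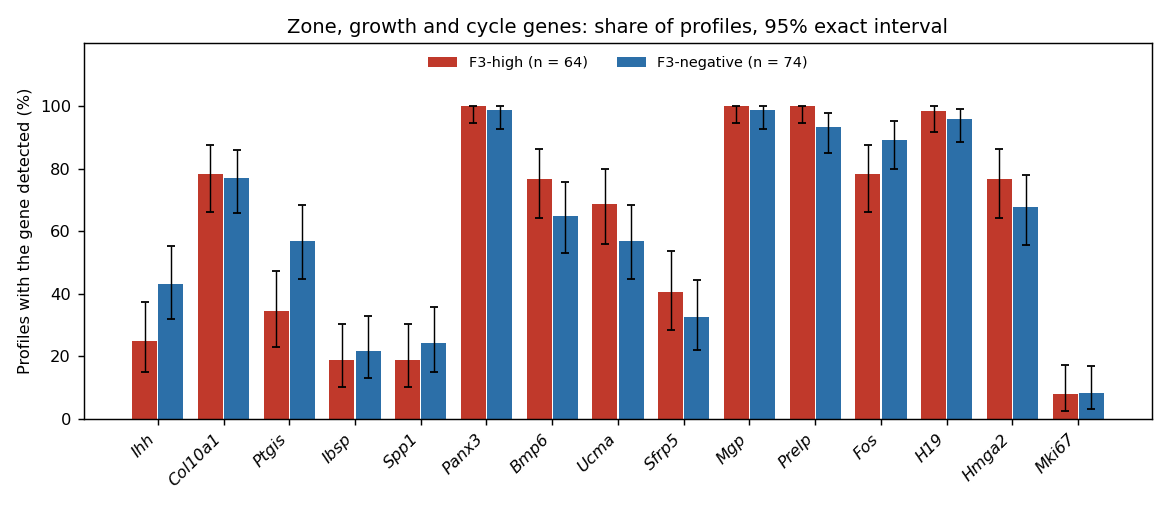
Share of profiles (%) with each zone, growth or cycle gene detected in F3-high (n = 64, left bars) and F3-negative profiles (n = 74, right bars), with 95% exact intervals. Ihh and Ptgis were detected in fewer F3-high profiles (25% and 34.4%) than F3-negative profiles (43.2% and 56.8%), while Col10a1, H19 and Mki67 were detected at nearly equal shares.

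As the plot of shares shows, detection was close to equal for most zone and growth genes, and intervals overlapped for Ihh as well. Division markers were rare in both groups. Mki67, a protein of dividing cells, was detected in 5 of 64 F3-high and 6 of 74 F3-negative profiles, and Top2a, a topoisomerase of dividing cells, in 3 of 64 F3-high and 5 of 74 F3-negative profiles. The S phase list had a median of 0.03 over 14 measured of 20 and the G2/M list 0.01 over 12 of 20, with no tested member past 1. Pcna, the replication clamp gene, had a difference of 0.94.

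Immediate-early and heat shock genes gave a median of 0.03 over 26 measured of 28. Of these, 13 were higher and 13 lower, beside 55.3% of all measured genes higher. Fos, an AP-1 subunit that cell isolation can induce, ran from 0.00 to 10.96 with a median of 6.95 in F3-high profiles, against 0.00 to 11.45 with a median of 7.80 in F3-negative profiles. Fos was detected in 50 of 64 F3-high and 66 of 74 F3-negative profiles, with a difference of -1.40, or -1.89 given genes detected, and -0.04 without the profiles with Ihh detected. Ier2, another early response gene, had a difference of -1.01 and was the other of 21 tested members past -1. The Fos relatives Fosl1 and Fosl2 had differences of 0.40 and -0.70, and Atf3, a stress transcription factor gene, 0.41, or 0.07 given genes detected.

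Outside the lists of ligands, the highest differences were those of Fbln7, 2410002F23Rik, Slc16a4 and Ptgs2, in this order. Fbln7, which encodes the adhesive matrix protein fibulin-7, ran from 0.00 to 9.78 with a median of 7.16 in F3-high profiles, against 0.00 to 8.51 with a median of 4.72 in F3-negative profiles. It was detected in 60 of 64 F3-high and 54 of 74 F3-negative profiles and was 2.46 higher, the highest difference after F3 among the tested genes, but it too comes from that earlier clustering of these cells. Ptgs2, the inducible prostaglandin synthase COX-2, had a median of 8.96 in F3-high and 7.45 in F3-negative profiles and was 1.97 higher, or 1.36 among profiles below the median number of detected genes. Ptgs2 and Ptgis, enzymes of prostaglandin synthesis, thus differed in opposite directions.

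The uncharacterised gene 2410002F23Rik was 2.21 higher, with detection in 51 of 64 F3-high and 30 of 74 F3-negative profiles. Its mean of 2.08 in F3-intermediate profiles lay close to the 1.91 of F3-negative profiles, against 4.12 in F3-high profiles. Slc16a4, of the monocarboxylate transporter family, was detected in 33 of 64 F3-high and 15 of 74 F3-negative profiles (1.99 higher). Eef1e1, of the tRNA synthetase complex, was detected in 63 of 64 F3-high and 61 of 74 F3-negative profiles (1.91 higher, but 0.95 among profiles at or above the median number of detected genes). Tma16, which acts in ribosome assembly, was 1.89 higher, the pseudophosphatase gene Styx 1.83, the fatty acid binding protein gene Fabp7 1.79, the serine protease gene Prss50 1.78 and Arl6ip6 1.72. Plet1 was 1.54 higher, but 0.13 without the profiles with Fos of at least 6, and that setting also gave 0.67 for Arl6ip6.

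The lowest differences of all tested genes were those of Fabp3 and Chp1, followed by that of Ptgis, given above, and those of Klf3 and Ddit4l. Fabp3, a fatty acid binding protein gene, was detected in 21 of 64 F3-high profiles (32.8%, 21.6 to 45.7%) and 46 of 74 F3-negative profiles (62.2%, 50.1 to 73.2%), with medians of 0.00 in F3-high and 3.71 in F3-negative profiles and a difference of -2.02. The calcium-binding protein gene Chp1 was detected in 29 of 64 F3-high and 49 of 74 F3-negative profiles (-1.85, or -2.16 given genes detected), and the transcription factor gene Klf3 in 28 of 64 F3-high and 49 of 74 F3-negative profiles (-1.64, or -1.94 given genes detected). Ddit4l, an inhibitor of mTOR signalling, was detected in 28 of 64 F3-high and 44 of 74 F3-negative profiles (-1.52). Fabp3, Chp1, Klf3 and Ddit4l each kept its sign under every alternative, but was nearer to 0 in 1 or more: Fabp3 was -1.11 and Ddit4l -0.63 among profiles below the median number of detected genes, Chp1 was -1.12 without profiles with Ibsp or Col1a1, and Klf3 was -0.98 without profiles with Ihh.

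Further genes with low differences were Snai2, a transcription factor of mesenchymal cells (-1.42), Plgrkt, a plasminogen receptor (-1.29), 2310045N01Rik (-1.29, or -1.61 given genes detected), Smim5 (-1.28), Tmem60 (-1.26), the survival gene Bcl2l1 (-1.26), the desaturase gene Fads1 (-1.21) and the acetyltransferase gene Acat2 (-1.15). Snai2 was detected in 21 of 64 F3-high and 40 of 74 F3-negative profiles, and Bcl2l1 in 10 of 64 F3-high and 30 of 74 F3-negative profiles.

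Matrix protease genes gave a median of 0.09 over 14 measured of 18, with 2 of 9 tested members past 1. Timp3, an inhibitor of metalloproteinases, averaged 6.90 ± 3.04 in F3-high and 5.56 ± 3.48 in F3-negative profiles (1.34), and Mmp2, a gelatinase, 4.60 ± 2.35 in F3-high and 3.52 ± 2.70 in F3-negative profiles (1.08). Housekeeping lists lay near 0: the median was -0.02 over 25 ribosomal protein genes, 0.08 over 23 respiratory chain genes and -0.12 over 19 measured of 25 hypoxia and glycolysis genes.

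Among markers of other cell types, Ctsk and Tagln were detected in more F3-high profiles and Col1a1 in more F3-negative profiles. The osteoblast list had a median of -0.30 over 12 measured of 14, and its mean level per profile ran from 1.32 to 4.0 in F3-high profiles, against 1.14 to 7.30 in F3-negative profiles. Col1a1, the main bone collagen gene, was detected in 5 of 64 F3-high and 15 of 74 F3-negative profiles and was not among the tested genes. In this list 10 members were lower and 2 higher, beside 55.3% of all measured genes higher. The 2 higher members were Col1a2, with a difference of 0.67, and Sparc, with 0.10. The part of these bone markers in the differences was not tested. Without the profiles with Ibsp or Col1a1 detected, 19 of the 25 genes at least 1.5 higher and 0 of the 5 genes at least 1.5 lower remained past these limits. Of 11 listed endothelial genes, Pecam1 was the 1 measured, detected in 0 of 64 F3-high and 2 of 74 F3-negative profiles. The macrophage and osteoclast list had a median of 0.00 over 8 measured of 16, and its mean level per profile ran from 0.00 to 2.50 in F3-high and from 0.00 to 1.85 in F3-negative profiles. Its member Ctsk, a matrix-degrading protease gene, was detected in 53 of 64 F3-high and 42 of 74 F3-negative profiles (1.44 higher, or 1.13 given genes detected), while Csf1r, Lyz2 and Cd68 had differences of -0.10, 0.03 and 0.31. In smooth muscle and pericyte genes, 5 measured of 11, the median was -0.07, and Tagln was detected in 18 of 64 F3-high and 8 of 74 F3-negative profiles (0.88 higher). The perichondrium and fibroblast list had a median of 0.02 over 9 measured of 13, the articular and tendon list 0.22 over 3 of 9, the marrow stromal list -0.19 over 3 of 7 and the blood list -0.18 over 1 of 15.

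Taking genes detected as a covariate left the highest differences in place and enlarged the lowest. Il11 was 2.38, Hbegf 2.23, Fbln7 2.32 and Inhba 1.71 higher given genes detected, and Fabp3 was -2.27. The counts at the limit of 1.5 were 25 higher and 11 lower with the covariate and 26 higher and 5 lower without it, F3 included, and the median over the tested genes was 0.00. Pcolce, at 1.42, and Mef2a, at 1.32, were among the genes that no longer reached 1.5; they are named here because the plot labels them, after their values were seen.

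**Figure D5:**
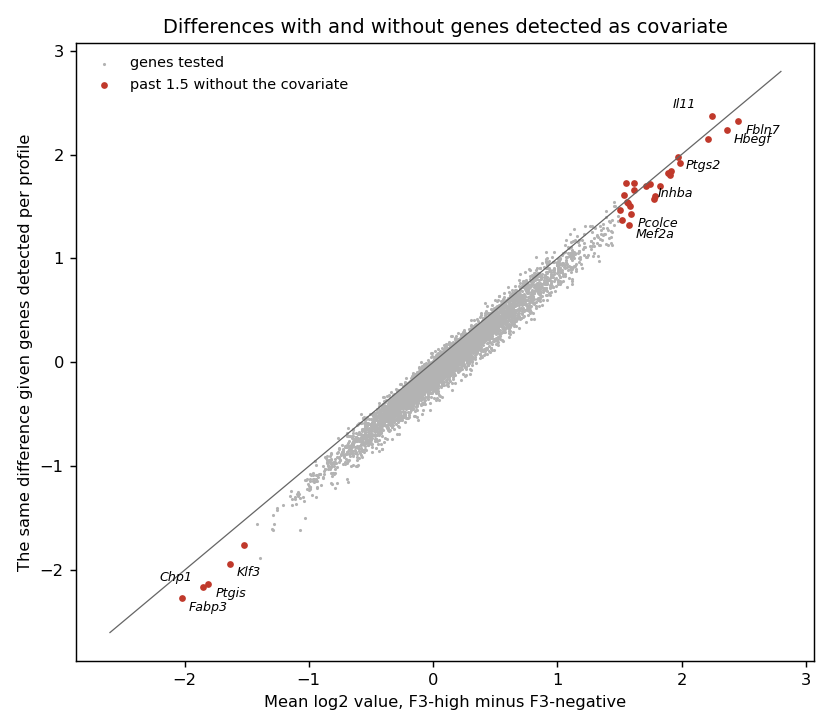
Difference of mean log2 value, F3-high minus F3-negative, for each of 5380 tested genes without (x axis) and with (y axis) genes detected per profile as a covariate, F3 left out; red points are the genes past 1.5 without it, and the line marks equal values. Most genes lie below the line, Il11 lies above it, and Fabp3, Chp1, Ptgis and Klf3 lie further from 0 with the covariate.

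Several smaller differences depended on which profiles were used. Among profiles below the median number of detected genes, Fabp7 was 0.95, Timp3 0.57 and Mmp2 0.52 higher, and Chrdl1 was -0.41. Among those at or above it, Prss50 was 1.0 and Ctsk 0.39 higher. Without the 10% of profiles with the fewest genes Impact was 0.70 higher, and without those with Ibsp or Col1a1 detected Spry4 was 0.59. Without profiles with Fos of at least 6, Styx was 1.23, Snai2 -0.58, Ier2 -0.42, Bcl2l1 -0.27, 2310045N01Rik -0.11 and Smim5 -0.08. Leaving out profiles with Ihh detected gave -0.21 for Tmem60 and -0.67 for Acat2. Prelp, by contrast, was 0.75 higher with F3-high set at 4 and 2.70 without the Fos profiles.

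The kit does not mark strand, so reads of a gene and of an overlapping gene on the opposite strand cannot be told apart. Among the named genes whose annotation was looked up, exons of such a gene overlap Hmga2, 2410002F23Rik, Styx, Timp3, Plet1, Prelp, Tagln, H19, Bmp6, Ccnd1, Acvr2a, Fst, Igf2, Fosl1 and Csf1r, and on the lower side Fabp3, Ptgis, Klf3 and Col10a1.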

How the data were processed

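SMARTer chemistry was used to copy the polyA RNA of single growth plate cells into full-length cDNA, and Nextera XT to build libraries, per the labels' protocols. TopHat and the mouse build mm10 are named in the submitters' processing notes. Not given in the sources used here are the quantifier, annotation, filters and abundance unit. The authors deposited log2 values that they had already scaled. These run from 0 to 15.14, 62.3% are exactly 0, and base 2 with a pseudocount of 1 was inferred from them. All 9739 genes exceed 0 in 10 or more columns, so transcripts of rare cells may be left out. The 1 row without a gene name was dropped.

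Columns correlating above 0.95 over all genes were averaged, 1 column that resembles a mixture of cells was dropped, and no doublet caller was run. Profiles were grouped by Acan and F3 as the report states. Genes detected (log2 of at least 1) in at least 20% of chondrocyte profiles were compared by difference of means, with limits of 1.5 and 1 and no test. A covariate fit was linear in genes detected per profile. NetworkX 3.6.1, SciPy 1.17.1, pandas 2.3.3 and NumPy 2.4.6 in Python 3.11.15 were used, with matplotlib 3.10.9 for plots. The code was run on shuffled values with known shifts added and on copies of profiles with added noise. Return of the added shifts follows from the arithmetic. It checks the code alone and not the effect of failed detection. Promoters are RefSeq's for GRCm38.p6, and gene overlaps come from GENCODE on GRCm38, the assembly also called mm10. Genes named are the markers F3, Inhba, Il11 and Hmga2, the 15 highest and 15 lowest differences, and, in each list, members past 1.5 and up to 4 others of large difference or defining role; a few further list members and genes were named after their values were seen. One gene of the coagulation list is not reported here and was left out of that list. The comparison, its members and the lists were chosen with earlier results of these data known. Alternatives changed the limits on F3 and Acan, repeats, the mixed column, pseudocount, scaling, covariate, profiles with few genes, profiles with bone or division markers, the detection filter and the limit. Leaving out profiles with Ihh detected, with Fos of at least 6 or averaged from repeats was chosen after seeing the data.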

Additional observations from a re-analysis of the deposited data

How the results depend on the processing

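No paired analysis was possible because all cells carry the same labels, with no animal, batch or replicate number that the groups share. Apart from F3, 25 genes were at least 1.5 higher and 5 at least 1.5 lower, or 0.465% and 0.0929% of the tested genes. These shares were 0.335% and 0.0372% with F3-high set at 4, 0.442% and 0.147% with Acan of at least 8, 1.06% and 0.111% with no Acan limit, 4.0% and 0.688% with a pseudocount of 0.1, and 0.446% and 0.204% with the covariate. They were 1.08% and 1.72% at or above the median of genes detected (37 F3-high and 30 F3-negative profiles), 2.09% and 0.234% below it (27 and 44), 0.416% and 0.199% without the 10% of profiles with fewest genes, 0.746% and 0.0191% without profiles with Ibsp or Col1a1, and 0.727% and 0.131% without Mki67 or Top2a. They were 1.72% and 0.0572% without Ihh (48 and 42), 0.779% and 0.0928% without averaged repeats, 8.60% and 0.445% without Fos of at least 6 (24 and 20), 3.81% and 0.688% at a limit of 1, and 0.727% and 0.109% among genes detected in at least 50% of profiles. Of the 25 genes higher, 22 remained past 1.5 with upper-quartile scaling, 21 with the covariate, 15 without Ihh profiles, 18 without Fos profiles and 13 below the median of genes detected. Of the 5 lower, 5 remained with upper-quartile scaling and with the covariate, 1 each without Ihh, without Fos and below that median, and 0 without Ibsp or Col1a1. The cause of these shifts was not tested.

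Il11 was 2.04 with F3-high set at 4, 2.53 at 7, 2.55 with no Acan limit, 3.36 with a pseudocount of 0.1, 2.44 at or above the median of genes detected, 1.88 without Ibsp or Col1a1, 1.43 without Ihh, 2.47 without averaged repeats and 1.68 without Fos of at least 6. Inhba was 2.19 at or above that median, 1.28 below it, 2.18 with a pseudocount of 0.1, 1.22 without Ihh and 2.37 without Fos. Hmga2 was 1.99 at or above the median, 0.34 below it and 0.58 without Ibsp or Col1a1. Of list medians, with no Acan limit the chondrocyte list gave 1.26 and the columnar list 0.60, the hypertrophic list gave -0.61 at or above the median of genes detected, WNT genes 0.50 with a pseudocount of 0.1, EGF genes 0.14 and prehypertrophic genes 0.15 without Ihh, and the last 0.17 without Fos. The hypertrophic median turned positive without Ihh (0.08) and without Fos (0.19), and the osteoblast median without Ihh (0.11), without Fos (0.13) and without Ibsp or Col1a1 (0.06). These medians lay below the median over all tested genes, which was 0.27 without Ihh, 0.42 without Fos and 0.19 without Ibsp or Col1a1. Signs turned for Col10a1 without Ihh (0.25) and without Fos (1.42), and for Ihh without Fos (0.46). Keeping the mixed column left 64 F3-high and 74 F3-negative profiles. It entered neither group, so it could not change these gene and list values, and that setting is no check of them.

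The median over the tested genes was 0.11, 0.00 with the covariate, 0.08 with upper-quartile scaling, 0.27 without Ihh and 0.42 without Fos. Upper-quartile scaling used genes detected in at least 50% of profiles, chosen after a wider gene set gave an undefined value. Depth is unknown, 1 sample without named animals limits every value, and cells of the same animal cannot be told apart.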
